A study of Rattus norvegicus with 20 samples.

Results

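The 8 genes described here, Pdk4, Tsc22d3, Fkbp5, Sgk1, Hsd11b1, Nr3c1, Glul and Klf9, are known for their response to glucocorticoids or to fasting, and were followed through graded calorie restriction (CR) in rat adipose tissue. They were found by symbol in the platform annotation, where 13 of 15866 probe sets carried 1 of the 8 symbols, and where a gene had several the brightest on average was used. The 8 genes are 8 of the 10411 genes with a probe set of a single symbol, and all 8 passed the filter on low signal that left 7113 genes and 9520 probe sets for testing. The samples came from male rats of the outbred Wistar strain, bought at 5 weeks of age, housed one to a cage and given a purified powdered diet. The methods do not state the age at which restriction began. Control rats received the full recorded intake of freely feeding rats, and the other groups received 5%, 10%, 20% or 30% less, for 1 week or for 1 month. All rats, controls included, were fasted for 16 h before white visceral fat was taken, so each difference given here is a difference between fasted rats and adds to whatever the fast did. The methods do not name the fat depot. RNA of the 5 rats of a group entered 1 pool and each of the 10 pools was hybridised to 2 Affymetrix Rat Expression Set 230 chips, so the pool counts as the replicate, its chips as technical repeats, and no group has a spread of its own among rats. The 1 month rats were also older than the 1 week rats, and duration and age cannot be told apart.

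Adipocyte markers were present in every pool. Fabp4, the fatty acid carrier of adipocytes, lay between 12.1 and 12.5 on the log2 scale of the MAS5 signal. Cfd, an adipocyte-secreted protease, lay between 12.2 and 12.8. The 5 genes of adrenal steroid synthesis represented averaged between 1.84 and 2.74 in the 10 pools. Among them Cyp17a1 was at 0 in its lowest pool, while Cyp11a1, the only 1 above the filter on low signal, lay between 5.04 and 5.87. The pools were not equal in make-up. The 14 pancreas genes represented, all of exocrine enzymes and their helpers, averaged 12.1 in the 1 week control and 6.45 after 1 week of 30% CR, against 2.43 to 2.85 in the other 8 pools, and Prss2 was at 0 in its lowest pool. The 11 lymphocyte genes averaged 6.88 (1 week) and 6.94 (1 month) in controls, and were lowest after 1 week of 30% CR (2.76) and after 1 month of 10% and 20% CR (2.95 and 2.98). The 10 adipocyte genes averaged 9.55 and 9.73 in the control pools and 9.87 to 10.2 in the 8 restricted pools. The dose slopes are therefore also given below without the pools with pancreas genes and with the lymphocyte or adipocyte average in the fit. The adipocyte genes include Lipe and Pck1, which are also on the list of the fasting programme described below. These were 0.60 and 0.39 log2 units higher in restricted than in control pools (limma adjusted p = 0.0182 and 0.106). A slope that shrinks in the adipocyte fit thus cannot be assigned to make-up or to the response to restriction.

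Glucocorticoids are adrenal steroids that enter cells and bind the glucocorticoid receptor, which moves to the nucleus and switches on genes that mobilise fuel and restrain insulin action and inflammation. In fat they act together with fasting signals. Insulin falls in a fast, forkhead box O factors are released from its control, lipolysis supplies fatty acids and glucose oxidation is held back at pyruvate dehydrogenase. Several of the 8 genes are shared by both inputs. Hsd11b1 reactivates the hormone inside the cell, Nr3c1 is the receptor, Fkbp5 is a co-chaperone that lowers the receptor's hormone binding, Tsc22d3, Klf9 and Sgk1 are classical receptor targets, and Pdk4 and Glul are enzymes of fuel use and nitrogen handling.

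The regions upstream of the gene starts are shown for 3 genes whose signals rose with restriction, Pdk4, Tsc22d3 and Glul, and for Klf9, since receptor and forkhead factors act through such sequence. Windows from 250 bases before to 50 bases after a start were taken from RefSeq (build GRCr8), which gave 13 windows for 7 of the 8 genes among 33469 windows in all. Hsd11b1 was not matched. Below are the 250 bases before the start of Pdk4 (chr4:34568330-34568579, minus strand), the third start of Tsc22d3 (chrX:109010035-109010284, minus strand), the first start of Glul (chr13:68519250-68519499, plus strand) and Klf9 (chr1:230126396-230126645, plus strand), each 5′ to 3′ along the gene, with capitals for the forkhead box O motif.
Pdk4: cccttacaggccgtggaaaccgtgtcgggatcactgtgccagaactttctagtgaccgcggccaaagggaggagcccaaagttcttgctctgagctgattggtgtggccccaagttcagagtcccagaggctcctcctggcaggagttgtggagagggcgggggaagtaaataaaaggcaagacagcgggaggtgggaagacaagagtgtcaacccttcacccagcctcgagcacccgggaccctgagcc
Tsc22d3: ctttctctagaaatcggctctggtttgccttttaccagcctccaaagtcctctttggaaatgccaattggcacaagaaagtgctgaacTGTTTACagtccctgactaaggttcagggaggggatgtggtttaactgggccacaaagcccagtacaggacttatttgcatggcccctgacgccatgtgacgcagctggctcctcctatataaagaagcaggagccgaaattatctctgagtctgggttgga
Glul: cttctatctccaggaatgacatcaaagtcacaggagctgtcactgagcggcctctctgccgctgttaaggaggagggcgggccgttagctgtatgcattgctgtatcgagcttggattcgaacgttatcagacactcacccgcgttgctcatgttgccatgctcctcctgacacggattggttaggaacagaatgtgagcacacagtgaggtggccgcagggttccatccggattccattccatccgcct
Klf9: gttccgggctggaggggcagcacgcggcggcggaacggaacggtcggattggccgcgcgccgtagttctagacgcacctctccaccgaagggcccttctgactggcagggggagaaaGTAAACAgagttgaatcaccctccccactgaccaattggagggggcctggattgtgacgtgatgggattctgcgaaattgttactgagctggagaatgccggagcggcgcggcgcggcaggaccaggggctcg

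The forkhead box O motif GTAAACA, sought on both strands, was found in 2 of the 13 windows and in 3.78% of all windows. Both windows with a match are among those printed above, which therefore do not stand for the 13. The window of Fkbp5, which also rose, and those of the other starts of Tsc22d3 and Glul held no match and are not printed. In Klf9 it began 133 bases before the start on the gene's strand, and in Tsc22d3 162 bases before the third start on the opposite strand. The glucocorticoid receptor half-site TGTTCT was found in 0 of the 13 windows and in 20.7% of all windows. The palindromic glucocorticoid response element, AGAACA and TGTTCT with 3 bases between and so holding the half-site, was found in 0 of the 13 and in 0.0149% of all windows. The cyclic AMP response element TGACGTCA and the E-box CACGTG were found in 0 of the 13 windows, against 1.83% and 6.42% of all windows. Only these letters in these short windows were searched, and receptor sites often lie farther from the start. The GC content of the gene windows ran from 40.7% to 79%, and most of them lay above the median of 51.7% for all windows.

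The 2 enzymes Pdk4 and Glul and the 2 receptor-linked genes Tsc22d3 and Fkbp5 rose with the level of CR over both durations (adjusted p under 0.05 in limma, fitted over the 10 pools with 1 slope per 10% of restriction). In pool means Glul and Tsc22d3 ascended at each level of both durations, though not every step lay beyond the technical spread of the chips. Pdk4 dipped at 5% CR at 1 week and Fkbp5 did not ascend steadily at either duration. Without the 2 pools that held pancreas genes 0 of the 8 genes passed, as did 15 of the 9520 probe sets, with slopes from 0.23 for Fkbp5 to 0.48 for Pdk4 among the 4. Of all 9520 probe sets 5.71% rose and 3.69% fell by this test, and 0 of the 8 genes fell. Hsd11b1, Nr3c1, Klf9 and Sgk1 did not pass. The median slope of the 8 genes was 0.23 log2 units per 10% of restriction, against -0.01 for all probe sets tested. The 8 genes were chosen with earlier results of these data known, so this contrast may follow in part from that choice. In pooled tissue fewer cells of a type and less RNA per cell cannot be told apart, and this applies to each value below.

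**Figure D1:**
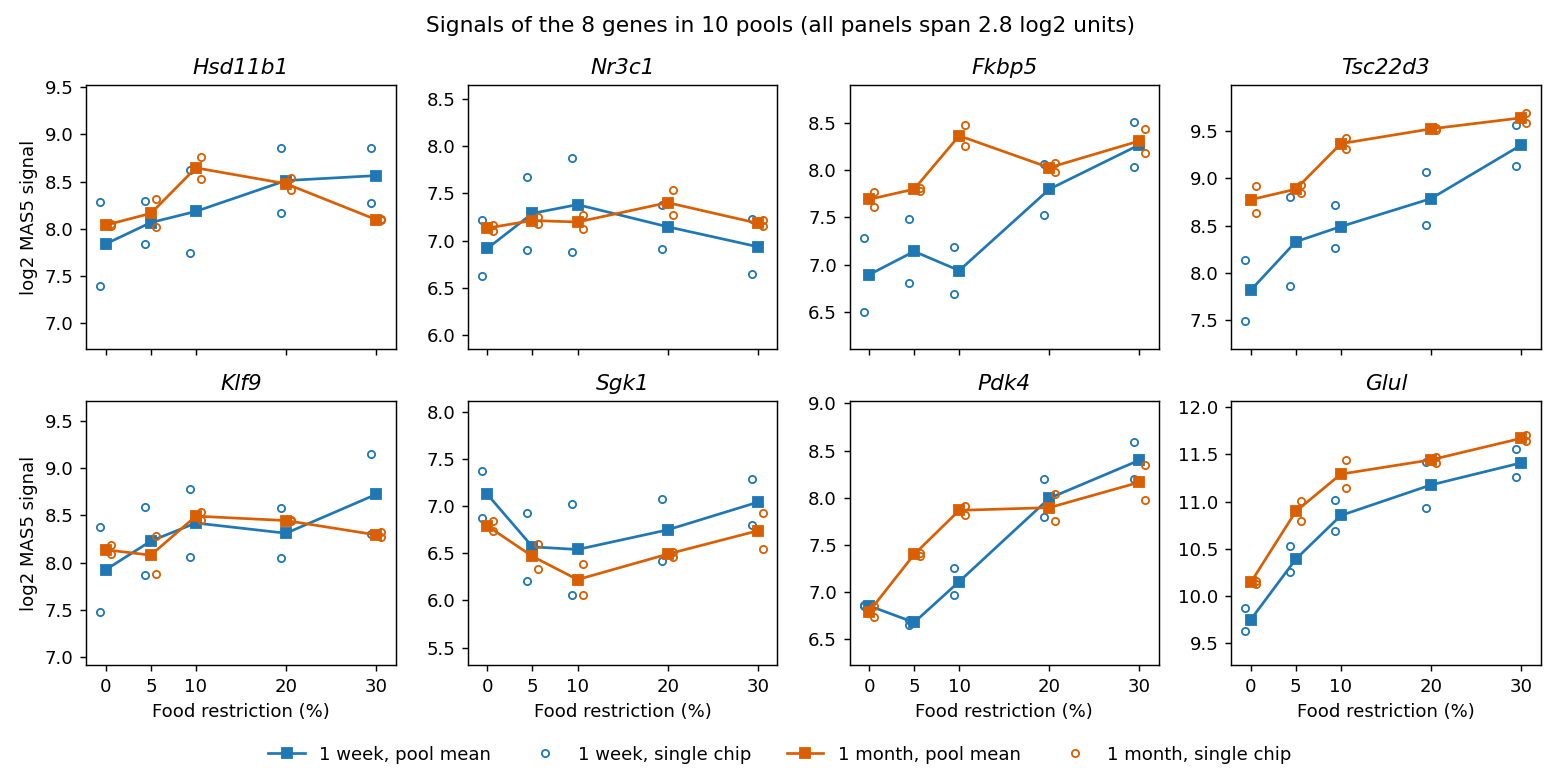
log2 MAS5 signal (vertical axis) of the 8 genes against the level of food restriction in percent, with squares for pool means, open circles for the 2 chips of a pool, and lines joining the pools of 1 week (blue) and 1 month (orange). Every panel spans the same number of log2 units. In pool means Glul and Tsc22d3 climb at each level, Pdk4 and Fkbp5 are higher at 30% CR than in the control, and Sgk1 is lowest at 10% CR, at both durations. Not every step lies beyond the technical spread of the chips.

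Hsd11b1 encodes the reductase that turns inactive 11-dehydrocorticosterone back into corticosterone, the rat's main glucocorticoid, and so sets hormone supply inside fat cells. At 1 week its log2 signal was 7.84 in the control pool and 8.07, 8.18, 8.51 and 8.56 at 5%, 10%, 20% and 30% CR. After 1 month it was 8.04 in the control pool and 8.16, 8.65, 8.48 and 8.10 along the same levels. The 1 week values ascended with each level, whereas the 1 month values were highest at 10% CR and back near the control at 30% CR. The largest differences from control were 1.65-fold at 30% CR at 1 week and 1.52-fold at 10% CR at 1 month. The slope over both durations was 0.13 ± 0.0628 (SE, 10 pools) and did not pass (limma adjusted p = 0.18), with 0.24 ± 0.0798 at 1 week (adjusted p = 0.153) and 0.02 ± 0.0798 at 1 month (adjusted p = 0.925). Without the 30% pool at 1 month it passed, at 0.24 (limma adjusted p = 0.0123). Its neighbours in the order of the 10 pools never lay further apart than 2 times the technical SD of a pool difference (0.153).

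Nr3c1, the glucocorticoid receptor itself, did not follow the level of restriction. Its signal was 6.92 in the 1 week control and 7.29, 7.38, 7.15 and 6.94 from 5% to 30% CR. At 1 month the control stood at 7.13 and the restricted pools at 7.21, 7.20, 7.40 and 7.18. The 1 week values were highest at the middle levels and returned to the control value at 30% CR, and the 1 month values lay within 0.27 of the control. The slope was -0.0047 ± 0.0483 (limma adjusted p = 0.963), and a second, dimmer probe set gave -0.08 ± 0.104 (adjusted p = 0.633). The lowest values, those of the 1 week control and 30% pools, belonged to the pools with pancreas genes, and Nr3c1 went against the pancreas average over the 10 pools (r = -0.738, centred within duration). Whether that RNA accounts for these low values was not tested. The slope without these pools was 0.01 ± 0.0502.

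Fkbp5 encodes an immunophilin that binds the receptor complex, lowers its affinity for hormone and is itself switched on by the receptor, closing a short feedback loop. At 1 week the control pool gave 6.89, the 5% and 10% pools 7.14 and 6.94, and the 20% and 30% pools 7.80 and 8.27. At 1 month the values were 7.69 in the control and 7.80, 8.37, 8.03 and 8.31 in order of restriction. At 1 week Fkbp5 was thus 1.19-fold of control at 5% CR and 1.03-fold at 10% CR, against 1.88-fold and 2.60-fold at 20% and 30% CR. The difference at 5% CR (0.247) lay just beyond 2 times the technical SD of a pool difference (0.223). At 1 month the 10% pool was already the highest. The slope over both durations was 0.32 ± 0.0715 and passed (limma adjusted p = 0.0211), a fitted 1.96-fold over the step from 0 to 30% CR. This call was lost under more of the alternatives than those of the other 3 genes that rose. It no longer passed without the 1 week control (slope 0.31, limma adjusted p = 0.0721), without the 30% pool at 1 week (0.24, adjusted p = 0.136) and without the 1 month control (0.34, adjusted p = 0.0663).

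Of the other proteins that build the receptor complex or handle steroids, 12 of the 16 listed were tested, and 3 rose and 1 fell. Akr1c14, a hydroxysteroid dehydrogenase of the liver and other tissues, rose by 0.41 ± 0.0847 per 10% of restriction (limma adjusted p = 0.0175), from 5.89 in the 1 week control to 7.38 at 30% CR and from 6.25 to 7.67 at 1 month. Por, the electron donor of microsomal cytochromes P450, rose by 0.37 ± 0.0743 (adjusted p = 0.015), and Ncoa1, a coactivator of nuclear receptors, by 0.22 ± 0.0514 (adjusted p = 0.0268). Of the 10 fits that left out 1 pool Akr1c14 and Por passed in 7 and Ncoa1 in 6, and all 3 missed the threshold without the 1 week control (adjusted p = 0.0619, 0.0538 and 0.0888), without the 1 week 30% pool (0.07, 0.0756 and 0.126) and without the 1 month control (0.0711, 0.062 and 0.0832). Ncoa1 did so too without the 20% pool at 1 month (0.0532). With the lymphocyte average in the fit the slopes of Akr1c14, Por and Ncoa1 were 0.31, 0.28 and 0.18 (adjusted p = 0.0963, 0.0781 and 0.143), and with the adipocyte average 0.20, 0.20 and 0.14 (adjusted p = 0.153, 0.13 and 0.339). Hspa4, a nucleotide exchange chaperone, fell by 0.18 per 10% of restriction (SE 0.0332, adjusted p = 0.00993), from 7.23 to 6.72 at 1 week and from 7.53 to 6.81 at 1 month. This call was lost without the 1 week 30% pool (adjusted p = 0.0601) and with the lymphocyte or adipocyte average in the fit (adjusted p = 0.0503 and 0.104). The receptor's chaperone and co-chaperones did not pass, with slopes of -0.06 for Hsp90ab1, -0.13 for Fkbp4, which opposes Fkbp5 at the receptor, and -0.0077 for Ptges3. Neither did the mineralocorticoid receptor Nr3c2 (0.13 ± 0.0627), the inactivating enzyme Hsd11b2 (-0.19 ± 0.103) or H6pd, which supplies NADPH to the Hsd11b1 protein (0.13 ± 0.0737). The median of the list was 0.05.

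Tsc22d3, the glucocorticoid-induced leucine zipper, is an anti-inflammatory receptor target with the upstream region shown above. Its signal was 7.81 in the 1 week control and 8.33, 8.49, 8.79 and 9.35 at 5%, 10%, 20% and 30% CR. At 1 month it was 8.77 in the control and 8.89, 9.37, 9.53 and 9.64 at these levels. The pool means of both series ascended at every level, and those of 1 month began higher and spanned less. The 30% pools were 2.90-fold of control at 1 week and 1.82-fold at 1 month. Both 1 week pools of that ratio held pancreas genes, and the part of that RNA was not tested. The step from 5% to 10% CR at 1 week (0.161) lay within 2 times the technical SD of a pool difference (0.124). So did those to 5%, 20% and 30% CR at 1 month (0.111, 0.157 and 0.117). On the second chips at 1 week the 10% pool lay below the 5% pool. The slope over both durations was 0.38 ± 0.0466 (limma adjusted p = 0.00222), a fitted 2.21-fold from 0 to 30% CR, and it ranked 17 of 9520 by p-value. It passed in all 10 fits that left out 1 pool, at 0.34 to 0.45.

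Klf9, a Krüppel-like transcription factor induced by glucocorticoids and thyroid hormone, gave 7.92 in the 1 week control and 8.23, 8.42, 8.31 and 8.72 in order of restriction. At 1 month its values were 8.14, 8.08, 8.49, 8.45 and 8.29 from control to 30% CR. All 4 restricted pools lay above control at 1 week, and at 1 month the 5% pool lay just below it. The slope of 0.14 ± 0.0484 did not pass (limma adjusted p = 0.0817), though it did without the 10% pool at 1 month (0.15, adjusted p = 0.0326) and without the 30% pool at 1 month (0.21, adjusted p = 0.0192). Without that 10% pool the slope itself was little changed, and more of all probe sets passed than over the 10 pools. A second probe set of much lower signal gave 0.28 ± 0.124 (adjusted p = 0.156), and another was below the filter. Klf9 went against the lymphocyte average over the 10 pools (r = -0.905), as did Hsd11b1 (r = -0.865). With that average in the fit the slope of Klf9 was 0.06 and that of Hsd11b1 0.02.

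Sgk1, a kinase that promotes sodium uptake and is switched on by corticosteroids, cell shrinkage and insulin signalling, took another course. At 1 week its signal was 7.12 in the control pool and 6.57, 6.54, 6.75 and 7.04 at 5%, 10%, 20% and 30% CR. At 1 month it was 6.79, then 6.47, 6.22, 6.49 and 6.74. All 8 restricted pools lay below their control, most at 10% CR (0.667-fold and 0.674-fold of control) and least at 30% CR (0.945-fold and 0.966-fold), at both durations. The differences at 30% CR (-0.08 and -0.05) lay within 2 times the technical SD of a pool difference (0.172). So did those at 5% and 20% CR at 1 month (-0.32 and -0.30). At 1 week the 5% and 10% pools were 0.0282 apart, and on the second chips the 5% pool was the lower of them. The 2 highest values, of the 1 week control and 30% pools, belonged to the pools with pancreas genes, and over the 10 pools Sgk1 went with the pancreas average (r = 0.681, centred within duration) and against the adipocyte average (r = -0.620). The part of that RNA in these values was not tested. At 1 month no pool held pancreas genes, and the 10% pool lay 0.246 below the next lowest, within 2 times the technical SD. In 7 of the 8 restricted pools both chips lay below the same-numbered chips of the control. A line could not describe this shape, and its slope was 0.03 ± 0.067 (limma adjusted p = 0.80). Other contrasts bear on it more directly. Restricted against control pools differed by -0.35 ± 0.149 (adjusted p = 0.144), and the line through the restricted levels, carried to 0, lay 0.63 below the control pools, written as a step of -0.63 ± 0.13 (adjusted p = 0.0871), so neither passed.

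Other genes that glucocorticoids induce were described from a list. Of 22 listed genes 15 were tested, and 3 rose, 0 fell and 12 did not pass, with a median slope of 0.05. Lpin1, a phosphatidate phosphatase and coactivator of fasting metabolism, rose by 0.38 ± 0.0532 (limma adjusted p = 0.00489), from 8.91 to 10.2 between the control and 30% pools at 1 week and from 8.77 to 9.96 at 1 month. Per1, a clock gene with receptor sites, rose by 0.30 ± 0.0667 (adjusted p = 0.0223), and Sult1a1, a sulfotransferase, by 0.26 ± 0.0387 (adjusted p = 0.00537). Lpin1 and Sult1a1 passed in all 10 fits without 1 pool. Per1 passed in 7, and missed the threshold without the 1 week control (adjusted p = 0.0661), the 1 week 30% pool (0.0961) and the 1 month control (0.0846), and with the lymphocyte (0.139) or adipocyte average (0.255) in the fit. Among those that did not pass were Errfi1, an inhibitor of growth factor receptors (0.25 ± 0.104), Cebpd (0.08 ± 0.0577) and Cebpb (0.05 ± 0.068), transcription factors of adipocyte formation, Dusp1, a phosphatase of stress kinases (-0.09 ± 0.0476), and Gadd45b, a stress gene (-0.28 ± 0.128). Relatives of the 8 genes were described too. Of 16 tested 0 rose and 2 fell, namely Sgk3, a kinase of the same family as Sgk1 (-0.28 ± 0.0805, adjusted p = 0.0496), and Tsc22d4 (-0.18 ± 0.0391, adjusted p = 0.0202). Sgk3 lay just inside the threshold and passed in 2 of the 10 fits without 1 pool, those without the 10% or the 30% pool at 1 month, with adjusted p up to 0.176 in the others, and it gave -0.15 and -0.10 with the lymphocyte and adipocyte averages (adjusted p = 0.32 and 0.603). Tsc22d4 passed in 7 of the 10, failing without either control or the 1 week 30% pool (adjusted p = 0.0701 to 0.0743), and gave -0.07 from the second chips alone (adjusted p = 0.548) and adjusted p of 0.0843 and 0.179 with the 2 averages. With each chip centred on its median neither passed (adjusted p = 0.0531 for Sgk3 and 0.0701 for Tsc22d4). Klf15, the Krüppel-like factor that responds to glucocorticoids and fasting, gave 0.17 ± 0.0617 (adjusted p = 0.0914).

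Pdk4 encodes the kinase that phosphorylates and shuts pyruvate dehydrogenase, sparing glucose during a fast, and its upstream region is shown above. At 1 week its signal was 6.85 in the control pool, 6.68 and 7.11 at 5% and 10% CR and 7.99 and 8.40 at 20% and 30% CR. At 1 month the control gave 6.79 and the restricted pools 7.40, 7.87, 7.89 and 8.16. The 5% pool at 1 week was below control (0.884-fold) and the 10% pool 1.19-fold of it, within 2 times the technical SD of a difference (0.203), whereas 20% and 30% CR gave 2.20-fold and 2.92-fold. At 1 month 5% CR already gave 1.52-fold, and 10%, 20% and 30% CR gave 2.11-fold, 2.15-fold and 2.59-fold. The slope was 0.50 ± 0.0686 (limma adjusted p = 0.00411), a fitted 2.82-fold from 0 to 30% CR, and passed in all 10 fits without 1 pool, at 0.46 to 0.58.

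The enzymes around pyruvate dehydrogenase had 12 tested of 13 listed, of which 5 rose, 0 fell and 7 did not pass, with a median slope of 0.13. Of the other pyruvate dehydrogenase kinases, Pdk2 rose by 0.43 ± 0.071 (limma adjusted p = 0.00778) and Pdk1 by 0.26 ± 0.0408 (adjusted p = 0.00712), while Pdk3 gave -0.12 ± 0.0672 (adjusted p = 0.239). Pdk2 stood at 7.45 in the 1 week control and at 7.87, 8.11, 8.70 and 8.84 with increasing CR, and at 7.15, 7.98, 8.44, 8.44 and 8.55 from control to 30% CR at 1 month. Subunits of the target complex rose as well, Pdhx by 0.22 ± 0.0398 (adjusted p = 0.0107) and Pdha1 by 0.18 ± 0.0292 (adjusted p = 0.00763), of which Pdhx no longer passed with the adipocyte average in the fit (adjusted p = 0.0814). The fifth, Mpc1, a subunit of the mitochondrial pyruvate carrier, rose by 0.16 ± 0.0302 (adjusted p = 0.0126) and was named after its values were seen. The phosphatases that undo the kinases' work did not pass, with slopes of 0.05 for Pdp1 and -0.0041 for Pdp2. Of the wider fasting programme 13 of 20 genes were tested, and 1 rose, Pnpla2, the first lipase of triglyceride breakdown (0.31 ± 0.0528, adjusted p = 0.00843). Foxo1, the forkhead factor itself, gave 0.04 ± 0.0485, Cpt1a, which admits fatty acids to mitochondria, -0.08 ± 0.0464, and Pck1, the enzyme of glyceroneogenesis, 0.16 ± 0.0499 (adjusted p = 0.0672).

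Glul, glutamine synthetase, joins ammonia to glutamate and is induced by glucocorticoids in fat and muscle. At 1 week its signal was 9.75 in the control and 10.39, 10.85, 11.18 and 11.41 at 5%, 10%, 20% and 30% CR. At 1 month it was 10.14 in the control and 10.89, 11.29, 11.44 and 11.67 in the restricted pools. Every step up in restriction gave a higher value at both durations, on the first and on the second chips alike. The first step to 5% CR was already 1.56-fold and 1.69-fold. The step from 20% to 30% CR at 1 month (0.229) lay within 2 times the technical SD of a pool difference (0.135). So did that from 20% to 30% CR at 1 week and that from 10% to 20% CR at 1 month. The 30% pools were 3.17-fold and 2.89-fold of control. At 1 week the control and 30% pools were those with pancreas genes. The slope was 0.48 ± 0.068 (limma adjusted p = 0.00489), a fitted 2.70-fold from 0 to 30% CR, and passed in all 10 fits without 1 pool, at 0.42 to 0.54. Both other probe sets of Glul passed too, with slopes of 0.32 ± 0.0464 (adjusted p = 0.00537) and 0.47 ± 0.0726 (adjusted p = 0.00611).

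With the 8 restricted pools as one group, the difference from control passed for Glul alone among the 8, by 1.20 ± 0.23 (limma adjusted p = 0.0195), that is 2.29-fold, a test that 4.34% of all probe sets passed in this direction. Glul gave 1.18 without the 1 week control (adjusted p = 0.267) and 1.21 without the 1 month control (adjusted p = 0.158), and missed the threshold with the lymphocyte average (0.95, adjusted p = 0.0877) and with the adipocyte average (0.44, adjusted p = 0.918). The other estimates ran from -0.35 for Sgk1 to 0.87 for Pdk4 (adjusted p = 0.137), with Tsc22d3 at 0.75 (adjusted p = 0.0788). For the step between control and the line of the restricted levels 0 of the 8 genes passed in limma, with 3 at an unadjusted p under 0.05 (Glul, Sgk1 and Nr3c1) against 1080 of the 9520 probe sets at that level, and 0.326% of all probe sets passed in either direction. The step of Glul was 0.66 ± 0.122 (adjusted p = 0.0654), while those of Pdk4 and Fkbp5 were 0.09 ± 0.237 and 0.02 ± 0.248. The other genes of glutamine handling gave 1 that rose, 0 that fell and 9 that did not pass of 10 tested, with a median slope of -0.06. That gene was Asns, asparagine synthetase, which uses glutamine (0.22 ± 0.0379, adjusted p = 0.00829), and it missed the threshold without the 1 week 30% pool (adjusted p = 0.0522) and with the adipocyte average (adjusted p = 0.0793). The glutamine transporters Slc1a5 and Slc38a1 gave -0.12 ± 0.0349 (adjusted p = 0.0511) and -0.39 ± 0.138 (adjusted p = 0.0904).

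**Figure D2:**
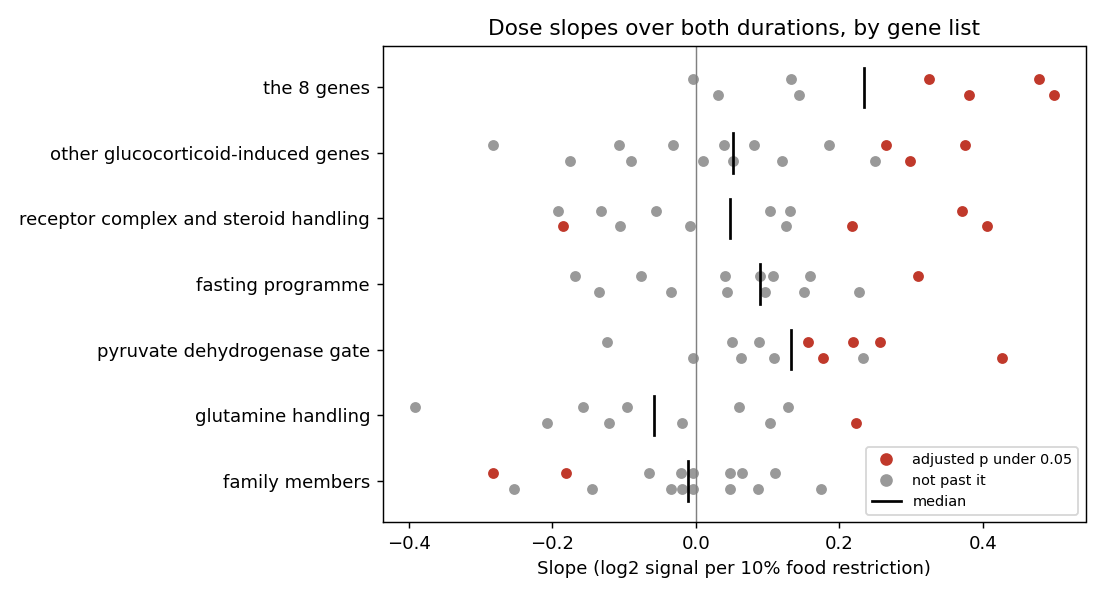
Dose slopes in log2 signal per 10% of food restriction (horizontal axis) of the 8 genes and of 6 lists of other genes, with 1 point per tested gene, red where the limma adjusted p was under 0.05, and a black bar at the median of each list. The medians are 0.23 for the 8 genes and between -0.06 and 0.13 for the other lists. The 8 genes and the lists were chosen with earlier results of these data known.

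Single pools were set against the control pool of their duration, which all 4 restricted pools of that duration share, and a probe set was counted where it differed at least 1.5-fold with 1 sign in all 4 chip-to-chip differences. With 1 pool a group no p-value belongs to these counts. At 1 week 1 of the 8 genes was higher at 5% CR (3.24% of all probe sets), 2 at 10% CR (5.55%), 4 at 20% CR (5.68%) and 4 at 30% CR (7.58%). At 1 month the counts were 2 at 5% CR (2.43%), 5 at 10% CR (6.22%), 3 at 20% CR (6.22%) and 4 at 30% CR (5.33%). None of the 8 was lower in any pool by this rule. Glul was higher in 8 of 8 pools, Pdk4 and Tsc22d3 in 6, Fkbp5 in 4, Hsd11b1 in 1 (10% CR at 1 month) and Klf9, Nr3c1 and Sgk1 in 0. Counts of the weaker genes depended on the scaling. With the chip sets brought to one mean first, a setting chosen after seeing the data, Hsd11b1 was higher in 3 pools and Klf9 in 1, and with each chip centred on its median in 4 and 2, while the counts of Glul, Pdk4, Tsc22d3 and Fkbp5 were the same under both. Asking only for the same sign in every chip-to-chip difference of all 8 restricted pools kept 1 gene, Glul, against 1.06% of all probe sets. With the chip sets brought to one mean it was again Glul alone, against 4.73% of all probe sets, and with median centring Glul, Tsc22d3 and Nr3c1, against 6.03%.

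**Figure D3:**
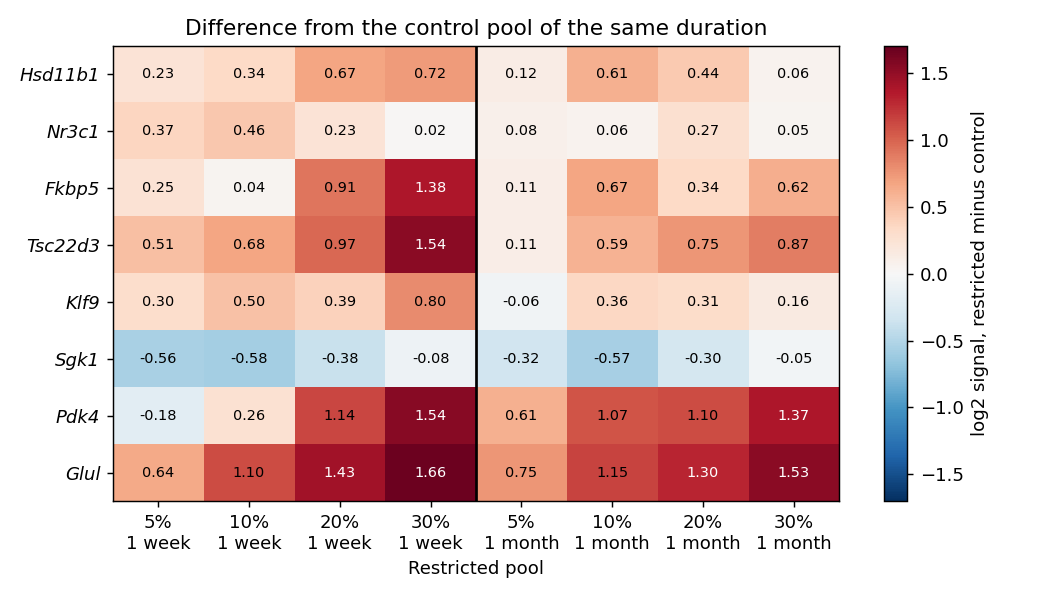
Difference in log2 signal between each restricted pool and the control pool of the same duration, for the 8 genes (rows) and the 8 restricted pools (columns), red above and blue below control. Glul is above control in every pool, from 0.64 to 1.66, and Sgk1 is below it in every pool, from -0.58 to -0.05.

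The 2 durations were also read apart. At 1 week Pdk4 rose by 0.60 ± 0.0917 (limma adjusted p = 0.033) and Tsc22d3 by 0.46 ± 0.0594 (adjusted p = 0.0206) per 10% of restriction, 2 of the 8 genes against 0.221% of all probe sets. Pdk4 passed in 3 of the 10 fits without 1 pool and Tsc22d3 in 5, and neither passed without the 1 week control (adjusted p = 0.109 and 0.15), the 10%, 20% or 30% pool at 1 week (adjusted p from 0.0556 to 0.464) or the 20% pool at 1 month (0.0725 and 0.0512). Pdk4 also missed the threshold without the 5% pool of either duration (adjusted p = 0.0971 at 1 week and 0.0631 at 1 month). Fkbp5 gave 0.48 ± 0.0828 (adjusted p = 0.0512) and Glul 0.51 ± 0.1 (adjusted p = 0.0701). At 1 month 0 of the 8 genes passed in limma, with 0.0945% of all probe sets rising, although 3 of the 8 had an unadjusted p under 0.05, as did 1256 of the 9520 probe sets, with slopes of 0.44 for Glul (adjusted p = 0.134), 0.40 for Pdk4 (adjusted p = 0.142) and 0.30 for Tsc22d3 (adjusted p = 0.103). Fkbp5 gave 0.17 ± 0.0828 (adjusted p = 0.40). Passing at 1 week and not at 1 month does not show a difference, which was tested as such. The slope at 1 month minus that at 1 week ran from -0.30 ± 0.117 for Fkbp5 to 0.08 ± 0.0988 for Nr3c1. All adjusted p-values of the 8 were 0.999 in limma, 1 of the 8 (Fkbp5) had an unadjusted p under 0.05, and 0% of the 9520 probe sets passed, 282 of them at an unadjusted p under 0.05.

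**Figure D4:**
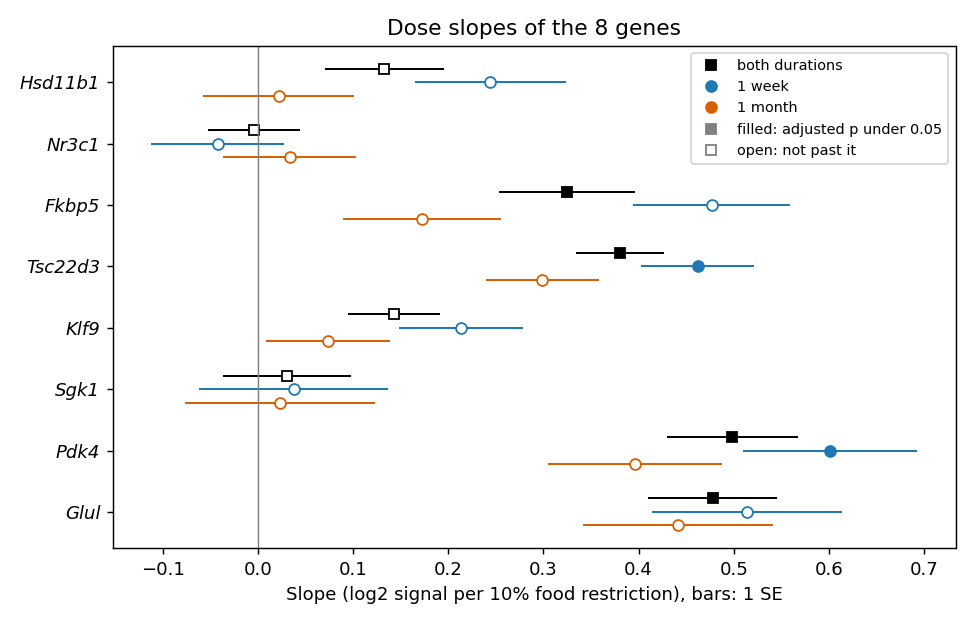
Dose slopes of the 8 genes in log2 signal per 10% of food restriction (horizontal axis) over both durations (black squares), at 1 week (blue) and at 1 month (orange), with bars of 1 SE and filled symbols for a limma adjusted p under 0.05. For 7 of the 8 genes the 1 week slope lies to the right of the 1 month slope, Nr3c1 being the exception, and none of these differences passed its test.

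Between durations Tsc22d3 and Fkbp5 stood apart. Tsc22d3 was higher at 1 month by 0.68 ± 0.101 (limma adjusted p = 0.00708) and Fkbp5 by 0.63 ± 0.154 (adjusted p = 0.0428), 2 of the 8 genes against 3.31% of all probe sets, with the median of all probe sets at 0.0681. Tsc22d3 was 1.95-fold higher in the 1 month than in the 1 week control pool and 1.22-fold at 30% CR. Fkbp5 was 1.74-fold higher in the control pools and 1.03-fold at 30% CR, with a maximum of 2.69-fold at 10% CR. The higher values at 1 month were thus also seen between the control pools and were smallest at 30% CR. In both of these comparisons the 1 week pool was one with pancreas genes, and the part of that RNA was not tested. Between the 5% pools Tsc22d3 was 1.47-fold and Fkbp5 1.58-fold higher at 1 month, and between the 20% pools 1.67-fold and 1.17-fold. Chip sets of the durations had been scaled apart before deposit, and with each chip centred on its median Tsc22d3 gave 0.66 (adjusted p = 0.0479) and Fkbp5 0.61 (adjusted p = 0.152). From the second chips alone Tsc22d3 gave 0.32 (adjusted p = 0.0593) and Fkbp5 0.34 (adjusted p = 0.115), and from the first chips alone 1.05 and 0.92 (adjusted p = 0.000633 and 0.0028). Tsc22d3 passed in all 10 fits without 1 pool, and Fkbp5 in 1, that without the 1 month 30% pool (adjusted p = 0.0291), with 0.0503 to 0.0885 in the others. The other 6 genes did not pass, Glul at 0.37 ± 0.146 (adjusted p = 0.164) and Pdk4 at 0.22 ± 0.148 (adjusted p = 0.431).

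Over the 10 pools, with pool means centred within each duration, the 4 genes that rose gave a Pearson's r from 0.788 (Fkbp5 and Glul) to 0.940 (Tsc22d3 and Glul) among themselves. These 4 were singled out for rising along the same levels in the same pools, so likeness among them follows in part from that choice. Hsd11b1 and Klf9 gave r of 0.725 to 0.895 with them, whereas Nr3c1 and Sgk1 did not, with r between -0.322 and 0.221 against the 4, and these 2 went against each other (r = -0.762). Nr3c1 and Sgk1 also ran opposite ways along the pancreas average (r = -0.738 and 0.681). The pools share RNA across all genes and no p-value is given. Among 7112 other genes the patterns most like that of Pdk4 were those of Ndufa9, a complex I subunit (r = 0.980), and Clpp, a mitochondrial protease (r = 0.977). Those most like Fkbp5 were Atp5po, an ATP synthase subunit (r = 0.972), and Fdx1, the ferredoxin of mitochondrial steroid hydroxylation (r = 0.968). For Tsc22d3 they were Etfbkmt (r = 0.986) and Sult1a1 (r = 0.985), and for Glul Zc3h14 (r = 0.994) and Coq8a, which serves coenzyme Q synthesis (r = 0.992). Klf9 was matched by Pacsin3 (r = 0.983) and Id1 (r = 0.970), Hsd11b1 by Serpinb6a (r = 0.988) and Tp53i13 (r = 0.969), Nr3c1 by Btrc (r = 0.940) and Plin1, the lipid droplet coat protein (r = 0.926), and Sgk1 by Dnaaf10 (r = 0.897) and Zfp36l1 (r = 0.868), the weakest likeness of the 8.

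The marker averages moved with several of these genes. Against the lymphocyte average r was -0.667 for Pdk4, -0.759 for Tsc22d3, -0.659 for Fkbp5 and -0.688 for Glul over the 10 pools, and against the adipocyte average 0.672, 0.787, 0.599 and 0.873. With the lymphocyte average in the fit 3 of the 8 genes passed, as did 201 of the 9520 probe sets in either direction against 895 before, with slopes of 0.43 for Pdk4 (limma adjusted p = 0.0119), 0.30 for Tsc22d3 (adjusted p = 0.00346) and 0.40 for Glul (adjusted p = 0.0131), and Fkbp5 no longer did (0.26, adjusted p = 0.117). With the adipocyte average, a fit chosen after seeing the data, the same 3 passed and 128 of the 9520 probe sets, at 0.45 (adjusted p = 0.0321), 0.30 (adjusted p = 0.0124) and 0.31 (adjusted p = 0.00762), of which Glul moved furthest from its first value, and Fkbp5 gave 0.29 (adjusted p = 0.177). Sgk1 gave 0.19 ± 0.0452 in that fit (adjusted p = 0.0665). Without both pools with pancreas genes 0 of the 8 passed in limma, as did only 15 of the 9520 probe sets in that smaller fit, with slopes of 0.48 for Pdk4 (adjusted p = 0.0937), 0.45 for Glul (adjusted p = 0.0672), 0.30 for Tsc22d3 (adjusted p = 0.0637) and 0.23 for Fkbp5 (adjusted p = 0.281).

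**Figure D5:**
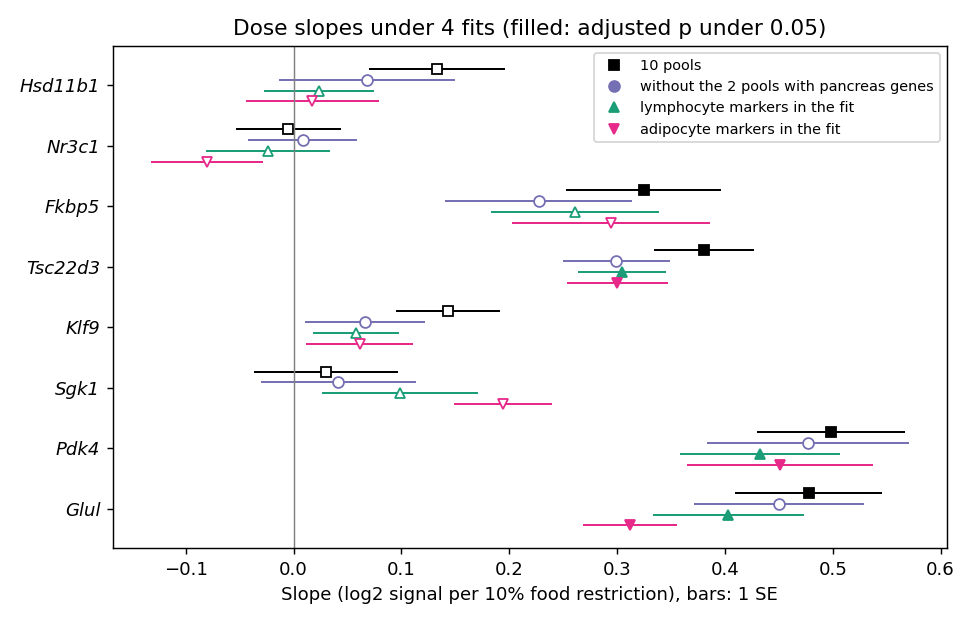
Dose slopes of the 8 genes in log2 signal per 10% of food restriction (horizontal axis) in 4 fits, over all 10 pools, without the 2 pools with pancreas genes, with the lymphocyte average and with the adipocyte average as a covariate, with bars of 1 SE and filled symbols for a limma adjusted p under 0.05. Pdk4, Tsc22d3 and Glul pass in each fit except that without the pools with pancreas genes, where none of the 8 passes, and Fkbp5 passes in the first fit only.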

How the data were processed

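Values were intensity values on a linear scale, MAS5 signals of Affymetrix software as the authors deposited them, per the labels and the study's methods. Of 15923 probe sets 57 array controls were left out. The platform table paired 12783 probe sets with 1 symbol, 312 with several and 2771 with none, and 12748 matched the current gene table. Signals under 1 were set to 1 (0.996% to 3.87% of values per chip) and log2 taken. The 2 chips of a pool were averaged. The dimmest probe sets, below the 40th percentile by mean log2 signal (22.8 as a signal), were not tested. The rest were tested with limma 3.58.1 in R 4.3.3 (lmFit, eBayes with an intensity trend), two-sided, over 10 pools, with Benjamini-Hochberg adjustment over 9520 probe sets and a threshold of 0.05. A slope over both durations left 7 residual degrees of freedom and slopes per duration 6. P-values measure the spread of pools around the fit, which holds no repeat pools.

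Chip sets of a duration and replicate number had been scaled apart: the trimmed mean signal (trim 0.02) was 77.0 and 110.6 at 1 week and 97.4 and 97.2 at 1 month for the first and second chips. Pool differences within a duration do not depend on this, but sign counts between single chips do. The number of arrays limits precision. On simulated data with known slopes the fit over both durations recovered 36% of slopes of 0.2 and 85% of slopes of 0.4, and 3.2% of calls were false. The simulated noise was independent between probe sets, whereas real pools share RNA and make-up across all genes. These shares therefore need not hold for the data here. The technical SD of a pool difference came from the chips of each pool, and marker averages are mean log2 signals of the listed genes represented. Also described were lists of skeletal muscle (8 of 8 represented, average 3.72 to 4.77 over the pools), mesothelial (6 of 9, 7.08 to 7.60), macrophage (10 of 14, 7.40 to 8.44) and epididymal (1 of 7) markers. The muscle genes were unequal, with Myh1 far above the others at 9.80 to 10.0 over the pools.

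The 8 genes and all lists were chosen with earlier results of these data known. All 8 genes are named, together with up to 4 genes past the threshold per other list by size of slope, or 2 where none passed, and the 2 most alike patterns per gene. Other genes were named for their role after their values were seen. Alternatives changed the floor, the filter, the scaling, the intensity trend, the pools or chips used and the covariates. MAS5 detection calls and change calls were not analysed here.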

Additional observations from a re-analysis of the deposited data

How the results depend on the processing

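Of the 4 genes that rose over both durations, Pdk4, Tsc22d3 and Glul passed under each alternative except without both pools with pancreas genes, where 0 of the 8 genes and 0 genes of the other lists (16 before) passed. Leaving out 1 pool or 1 chip of each pool gave 3 to 6 genes and 7 to 29 list genes, 0 to 4 genes at 1 week, 0 to 3 at 1 month, 0 to 3 for restricted against control, 0 to 2 for the step and 1 to 4 for 1 month minus 1 week, and 1 to 6 genes moved one way in all pools. The 6 came from the second chips alone, where only 1 difference per pool had to agree and 12.6% of all probe sets moved up and 12.5% down. List genes numbered 7 without the 1 week 30% pool, 9 without the 1 month control and 29 without the 1 month 10% pool, with 110, 160 and 1921 of the 9520 probe sets passing. Fits on 20 chips with the pool as a random block gave 25 list genes and 4, 3, 3 and 2 genes at 1 week, at 1 month, for restricted against control and for the step. The labels' replicate numbers name chips of 1 pool, so they pair no animals. A replicate block added to that fit, chosen after seeing the data, gave 5 genes over both durations (Klf9 passed at 0.14, limma adjusted p = 0.022), 27 list genes and 6, 3, 4 and 2 genes in the same order. Such fits count chips, so their p-values are too small. Where no share of all probe sets stands beside a count in this paragraph, the count shows only how it depended on the setting. The lymphocyte average in the fit gave 8 list genes and 1, 1, 0 and 1 genes in that order. The adipocyte average gave 6 list genes, 0 genes for restricted against control and 1 for 1 month minus 1 week. At 1 week 0 genes passed without an intensity trend and 0 without both pancreas pools, which also left 0 for restricted against control and 1 for 1 month minus 1 week. That last count was 1 with no filter on low signals, with median centring, with quantile normalization and without an intensity trend, and quantile normalization gave 1 for the step. With median centring 3 genes moved one way, as did 6.03% of all probe sets up and 1.72% down. A minimum of 2-fold left 13 of the 25 changes by pool. Slopes near 0 turned sign without being called. Nr3c1 gave 0.0411 with median centring, 0.0038 with quantile normalization, 0.02 without the second chips, 0.0084 without both pancreas pools and -0.0427 to 0.0462 with 1 pool left out. Sgk1 gave -0.02 without the first chips and -0.0192 to 0.0916 with 1 pool left out. With 1 pool per group and 2 chips per pool, differences between rats could not be measured.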
